A study of Mus musculus with 6 samples.

Results

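Receptors that steer leukocytes between blood, lymphoid organs and tissue were examined in CD8+ T cell RNA from mouse spleen. The set was chosen by gene name: Ccr7, S1pr1, Cxcr3, Cxcr4, Cxcr5, Ccr9, Cx3cr1, Ccr2 and Cxcr2. All 9 were found among the 35458 Ensembl gene identifiers of the files. RNA-seq was run on 3 control samples of genotype Cd4cre and 3 knockout (KO) samples of genotype Cd4creGlut10fl/fl, labelled as primary cells although the series title carries the word lymphoma. Both groups therefore carry the Cre transgene, whose Cd4 promoter elements act in developing T cells, and the KO group alone carries floxed Glut10, the hexose transporter encoded by Slc2a10. No age, sex or treatment is given, and nothing in the labels states that the 3 libraries of a group are separate mice, so p-values measure the spread between libraries, which could be technical. Levels are in FPKM, which corrects a gene's fragments for its length and for the depth of the library. Where 3 values are given for a group, they stand for replicates 1, 2 and 3 in that order.

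Chemokine receptors are G protein-coupled receptors that make a cell move up a gradient of their ligand. Naive T cells enter lymph nodes through CCR7, which reads CCL19 and CCL21, and leave them through S1PR1, which senses the lipid sphingosine 1-phosphate of blood and lymph. CXCR5 guides cells into B cell follicles, CXCR3 into inflamed tissue and CCR9 to the gut and thymus, CXCR4 holds cells in CXCL12-rich niches such as bone marrow, CX3CR1 marks patrolling monocytes and cytotoxic effector cells, and CCR2 and CXCR2 recruit monocytes and neutrophils.

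The libraries differed in marker transcripts and depth before any receptor is considered. The FPKM values implied totals of 11840640 to 15036282 fragments in the controls and 14683394 in KO 2, but 3420291 and 3004540 in KO 1 and KO 3. Of 18 T cell core genes, none was at 0 in every library, and their summed level was 1825, 572 and 452 FPKM in the controls against 1790, 2719 and 1728 FPKM in KO. Summed over 15 neutrophil genes, control 2 and 3 held 17023 and 29881 FPKM, against 449.8 FPKM in control 1 and 76.8 to 718 FPKM in the KO libraries. The summed erythroid genes were likewise high in control 2 and 3, at 2267 and 1050 FPKM, against 9.11 to 44.02 FPKM in the other 4 libraries. Cd8a, a chain of the CD8 coreceptor, was present in all 6 libraries, at 191, 30.3 and 31.8 FPKM in the controls against 101, 252 and 90.7 FPKM in KO. In KO 1 and KO 3, 905 olfactory and vomeronasal receptor genes, which serve sensory neurons, averaged 1.07 and 1.11 FPKM, against 0.0188 to 0.0852 FPKM in the others, with medians of 0.115 and 0.153 FPKM against 0 FPKM. The targeted gene Slc2a10 reached 0.0946, 0.0373 and 0.0373 FPKM in the controls, or 4, 2 and 2 reads, and 0 FPKM in every KO library, where a count of 0 allows up to 0.246, 0.0572 and 0.280 FPKM (3 reads, counting error only). A difference in Slc2a10 was not detectable at this depth.

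Start site sequence is shown for 3 receptors whose values over the libraries were unlike each other: Cxcr3, highest in KO 2, Ccr9, near 0 in control 2 and 3, and Cxcr2, high there. Each sequence runs from 250 bases before to 50 after the RefSeq gene start (build GRCm38.p6), which was matched for 6 of the 9 receptors (Cxcr3, Cxcr4, Ccr9, Cx3cr1, Ccr2 and Cxcr2). Capitals mark the motif letters ACTTCCT (ETS family), TGTGGT (RUNX), CAGGTG (an E-box) and TCACAC (T-box) on either strand.
Cxcr3, chrX:101734098-101734397, minus strand: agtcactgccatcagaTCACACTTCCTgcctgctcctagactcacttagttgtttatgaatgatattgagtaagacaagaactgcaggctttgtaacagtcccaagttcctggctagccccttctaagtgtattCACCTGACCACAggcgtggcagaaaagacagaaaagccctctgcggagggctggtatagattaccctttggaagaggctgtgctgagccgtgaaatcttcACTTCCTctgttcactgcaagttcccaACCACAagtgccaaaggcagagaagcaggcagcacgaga
Ccr9, chr9:123766961-123767260, plus strand: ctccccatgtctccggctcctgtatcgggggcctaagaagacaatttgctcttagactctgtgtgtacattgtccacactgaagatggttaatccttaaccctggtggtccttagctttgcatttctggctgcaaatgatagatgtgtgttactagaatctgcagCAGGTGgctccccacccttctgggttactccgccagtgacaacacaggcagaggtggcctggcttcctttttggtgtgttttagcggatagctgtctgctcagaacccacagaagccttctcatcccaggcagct
Cxcr2, chr1:74153744-74154043, plus strand: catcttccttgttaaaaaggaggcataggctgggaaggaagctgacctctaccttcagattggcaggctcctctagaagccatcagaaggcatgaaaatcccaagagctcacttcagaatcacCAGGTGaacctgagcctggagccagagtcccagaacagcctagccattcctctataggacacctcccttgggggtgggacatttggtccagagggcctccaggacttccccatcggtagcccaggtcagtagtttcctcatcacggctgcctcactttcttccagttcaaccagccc
The Cxcr3 window held ACTTCCT and TGTGGT 2 times each and CAGGTG and TCACAC once each, and its TCACAC overlaps an ACTTCCT. The Ccr9 and Cxcr2 windows each held CAGGTG once and none of the other 3. Among 27025 gene starts, 9.57% held ACTTCCT, 16.9% TGTGGT, 20.0% CAGGTG and 14.4% TCACAC. Also searched on both strands were GAGGAAGT (PU.1, which overlaps ACTTCCT), found in the Cxcr3 window and in 3.28% of starts, CACCC (KLF), found once each in the Ccr9 and Cxcr2 windows and in 56.7% of starts, and TTNNGNAA (C/EBP), found once in the Cxcr3 window and in 40.7% of starts. Such matches describe letters, not binding.

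None of the 9 receptors passed the test between KO and control. The filter, a level of 1 FPKM or more in 3 or more libraries, left 13956 genes. Of these, 0 (0%) had a limma adjusted p under 0.05, and 1646 (11.8%) were under 0.05 before adjustment. 8 of the receptors passed that filter, all but Cx3cr1, and 3 of these 8 (Cxcr5, Ccr2 and Cxcr2) had an unadjusted limma p under 0.05, with limma adjusted p = 0.417 for each. Which receptors were under 0.05 before adjustment depended on the setting: Cxcr5 was not after quantile normalization, nor Cxcr2 with limma-voom despite a log2 difference of -4.01 there, while Ccr9 was with limma-voom. The same 3 were the ones whose groups did not overlap, Cxcr5 higher in KO, and Ccr2 and Cxcr2 lower, where 6.70% and 9.44% of all tested genes did so. An unadjusted p under 0.05 was reached by 5.33% of tested genes with a higher and 6.46% with a lower estimate in KO. Cxcr2 passed the filter through its 3 control values alone, so its place among these 3 follows from the filter in part. On implied reads, limma-voom had 0 of 16254 genes past the threshold and 1347 past 0.05 before adjustment.

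Ranked by level, Ccr7 came first and Cxcr4 second in all 6 libraries. S1pr1 followed in 5 of them, and in control 3 it stood behind Cxcr2. In the controls all neighbours in the order of mean levels had overlapping ranges except the last pair, Cxcr5 and Cx3cr1. In the KO group the step from Ccr7 (453 ± 102 FPKM, SD, n = 3) to Cxcr4 (161 ± 58.6 FPKM) was free of overlap, as was the step from S1pr1 (105 ± 32.5 FPKM) to Cxcr3 (14.4 ± 12.9 FPKM). Cxcr3, Cxcr5, Ccr9 and Ccr2 followed in KO with overlapping ranges between neighbours, and Cxcr2 lay below the range of Ccr2. Cx3cr1 was the lowest on average in both groups. The 9 genes together came to 788, 340 and 463 FPKM in the controls against 958, 667 and 631 FPKM in KO, of which Ccr7 made up 43.0% to 64.0%.

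**Figure D1:**
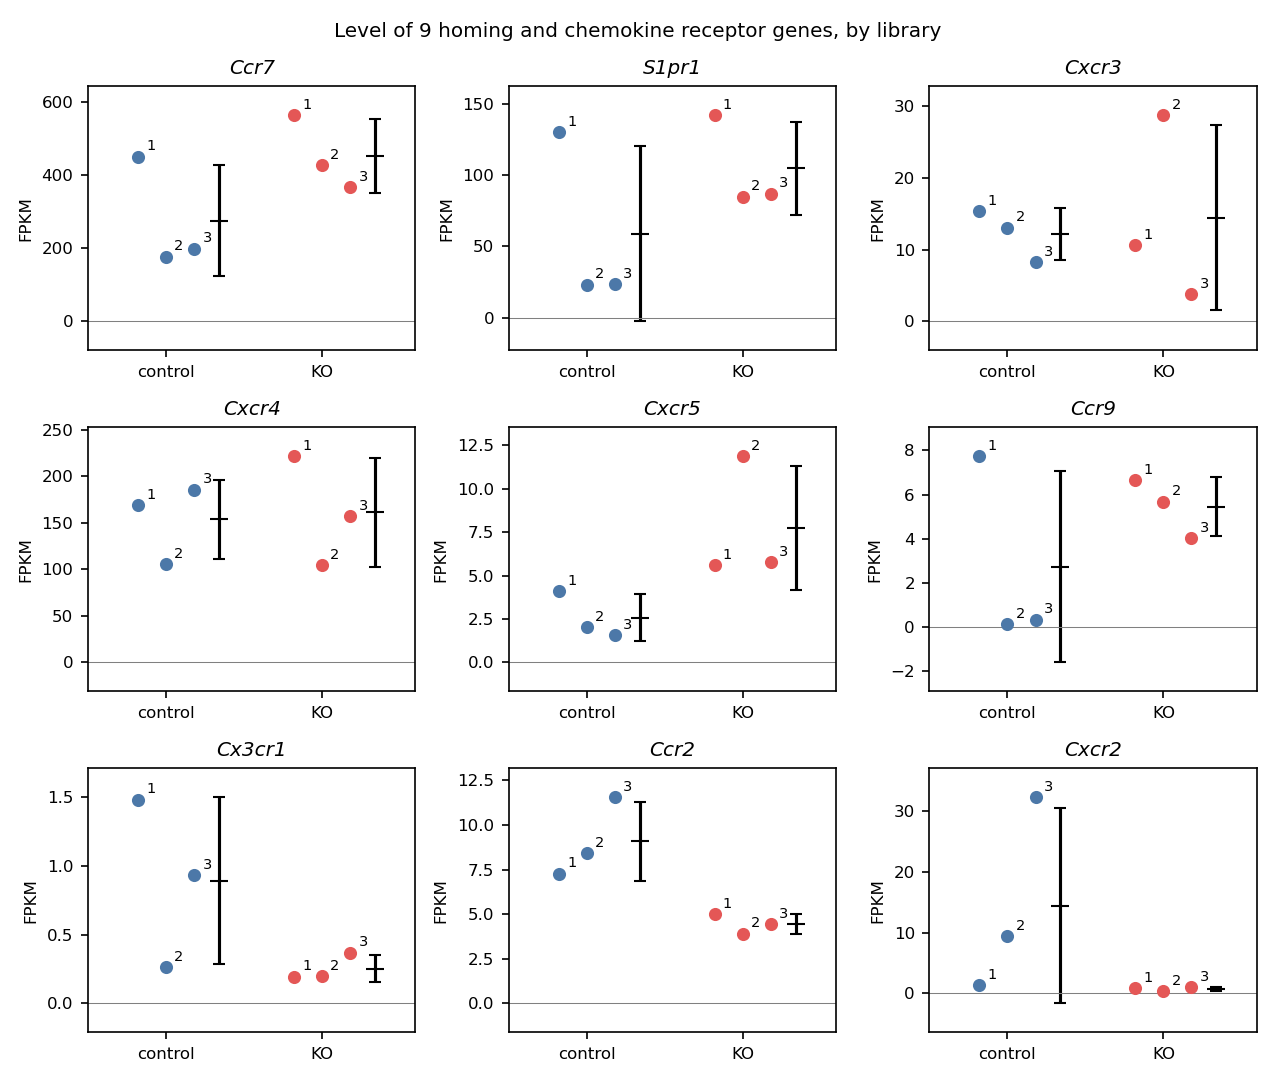
FPKM (vertical axes, linear) of each receptor gene in the 3 control (blue) and 3 KO (red) libraries, with the replicate number beside each point and the group mean ± SD (n = 3) as a black bar. Ccr7, S1pr1 and Ccr9 share a pattern in which control 1 lies with the KO libraries and control 2 and 3 lie below them, while Cxcr2 is high only in control 2 and 3.

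Ccr7 (ENSMUSG00000037944, chromosome 11), the lymph node entry receptor, measured 451, 177 and 199 FPKM in the controls against 565, 427 and 367 FPKM in KO. Control 1 lay inside the KO range and control 2 and 3 below it, so the groups overlapped. The log2 difference (KO minus control, on log2(FPKM + 1), as for all differences here, a scale that understates changes of low genes) was 0.82 (SE 0.41, 95% interval -0.18 to 1.82, limma adjusted p = 0.418). Without control 2 and 3 it was -0.018. T cell core genes were also low in control 2 and 3, and in bulk RNA fewer cells of a type and less RNA per cell cannot be told apart. Per FPKM of Cd3e, a CD3 chain carried by T cells, Ccr7 measured 7.84, 12.1 and 14.5 in the controls against 13.1, 6.79 and 11.0 in KO, and on this footing control 2 and 3 were no longer the low samples.

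S1pr1 (ENSMUSG00000045092, chromosome 3), the exit receptor, measured 130, 23.1 and 23.5 FPKM in the controls against 142, 84.8 and 86.9 FPKM in KO. Again control 1 fell among the KO libraries. Its log2 difference was 1.27 (SE 0.69, 95% interval -0.39 to 2.93, limma adjusted p = 0.421), and -0.35 without control 2 and 3. With control 1 left out instead, S1pr1 had a log2 difference of 2.08 and a limma adjusted p = 0.0372, among 146 genes (1.05% of those tested) past the threshold and higher in KO in that fit, of 363 (2.60%) in either direction. Relative to Cd3e, S1pr1 measured 2.26, 1.57 and 1.71 in the controls against 3.28, 1.35 and 2.60 in KO, with overlapping groups. Klf2, the transcription factor known to drive S1pr1 in T cells, measured 397, 36.9 and 37.8 FPKM in the controls against 460, 214 and 433 FPKM in KO, the same split of control 1 from control 2 and 3. CD69, the membrane protein that removes S1PR1 from the surface, had its Cd69 transcript at 16.1, 16.0 and 6.89 FPKM in the controls against 9.21, 22.9 and 8.18 FPKM in KO, with no such split.

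Ccr9 (ENSMUSG00000029530, chromosome 9), the receptor for the gut and thymus chemokine CCL25, reached 7.75, 0.130 and 0.337 FPKM in the controls, or 942, 20 and 52 reads, and 6.67, 5.69 and 4.02 FPKM in KO, or 234, 857 and 124 reads. Control 1 was the highest of all 6 libraries, and the exact Poisson 95% limits of control 2 and 3 (0.0793 to 0.200 and 0.252 to 0.442 FPKM, counting error only) lay far below every other library. The log2 difference was 1.43 (SE 0.80, 95% interval -0.51 to 3.37, limma adjusted p = 0.430), -0.46 without control 2 and 3, and 2.37 without control 1 (limma adjusted p = 0.0385), where S1pr1 and Ccr9 were the 2 receptors past the threshold. The filter was not redone without control 1, the only control with Ccr9 at 1 FPKM or more. Ccr9 stood in that fit through its 3 KO values alone, so its call there follows from the filter in part. Implied reads of all 6 libraries with limma-voom gave a log2 difference of 3.26, with no pseudocount on FPKM to compress the low values. Per FPKM of Cd3e, Ccr9 measured 0.135, 0.00883 and 0.0246 in the controls against 0.154, 0.0904 and 0.121 in KO, so it was lower in control 2 and 3 beside Cd3e as well. The Ccr9 gene overlaps other gene models, among them the pseudogene Gm10052 at 78.7 to 202 FPKM. In control 2 and 3, where Ccr9 was near 0, Gm10052 stood at 150 and 94.9 FPKM. Overlap was taken over whole gene spans, introns included, and the strand setting is not given in the sources used here. Whether any reads are shared was not measured.

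Cxcr5 (ENSMUSG00000047880, chromosome 9), the follicle homing receptor of B cells and follicular T cells, measured 4.13, 2.06 and 1.56 FPKM in the controls against 5.62, 11.9 and 5.79 FPKM in KO. Every KO library lay above every control, with KO 2 well above the other two. The log2 difference was 1.28 (SE 0.42, 95% interval 0.27 to 2.30, limma adjusted p = 0.417). Leaving out control 2 and 3 gave 0.70, and leaving out KO 1 and 3 gave 1.91. Summed over 12 B cell marker genes, the level was 51.2, 17.4 and 27.5 FPKM in the controls against 87.2, 54.9 and 66.2 FPKM in KO, so this sum was also higher in each KO library than in each control. The mean log2(FPKM + 1) of the 12 genes did overlap, with control 1 at 1.59 above KO 2 at 1.53, and only 5 of the 12 passed the filter. None of the 12 was at 0 in all 6 libraries, and their part in the Cxcr5 values was not tested. Cd79a, a B cell receptor chain, measured 15.8, 5.30 and 3.20 FPKM in the controls against 32.3, 15.3 and 27.6 FPKM in KO. Cxcr5 per FPKM of Cd79a was 0.261, 0.388 and 0.487 in the controls against 0.174, 0.776 and 0.210 in KO, with overlapping groups. Per FPKM of Cd3e, Cxcr5 measured 0.0718, 0.140 and 0.114 in the controls against 0.130, 0.189 and 0.174 in KO, and the groups overlapped. The span of the Cxcr5 gene overlaps that of Bcl9l on the opposite strand. Bcl9l measured 16.2, 1.86 and 3.19 FPKM in the controls against 20.4, 12.0 and 16.6 FPKM in KO. Reads that these genes could share were not measured.

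Cxcr3 (ENSMUSG00000050232, chromosome X), the receptor for the interferon-induced chemokines CXCL9 and CXCL10, measured 15.3, 13.0 and 8.26 FPKM in the controls against 10.6, 28.7 and 3.85 FPKM in KO. The KO libraries held both the highest and the lowest value, KO 2 with 730 reads and KO 3 with 20 reads. Its log2 difference was -0.11 (SE 0.66, 95% interval -1.70 to 1.48, limma adjusted p = 0.944), 1.21 without KO 1 and 3, and 0.53 without KO 3. Tbx21, which encodes T-bet, a known activator of Cxcr3, was likewise highest in KO 2, at 14.1 FPKM, against 0.940 and 0.401 FPKM in KO 1 and 3 and 5.36, 2.19 and 0.401 FPKM in control 1, 2 and 3. Cxcr3 per FPKM of Tbx21 was not level, at 2.86, 5.94 and 20.6 in the controls against 11.3, 2.03 and 9.58 in KO. Eomes, a related T-box factor of effector and memory CD8+ cells, measured 28.1 FPKM in KO 2 against 7.74 and 6.49 FPKM in KO 1 and 3, and 23.9, 3.45 and 0.976 FPKM in control 1, 2 and 3.

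Cxcr4 (ENSMUSG00000045382, chromosome 1), the receptor for CXCL12, measured 169, 106 and 186 FPKM in the controls against 222, 105 and 157 FPKM in KO. Its groups overlapped, with the lowest library of each group almost equal. The log2 difference was 0.04 (SE 0.36, 95% interval -0.82 to 0.91, limma adjusted p = 0.962). Neutrophils and B cells are known to carry CXCR4 too, and per FPKM of Cd3e the Cxcr4 level was 2.94, 7.21 and 13.6 in the controls against 5.13, 1.67 and 4.71 in KO.

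Cx3cr1 (ENSMUSG00000052336, chromosome 9), the fractalkine receptor, was low and below the filter, so it was not tested. Its control levels were 1.48, 0.266 and 0.930 FPKM, or 79, 18 and 63 reads, and 0.195, 0.197 and 0.369 FPKM in KO, or 3, 13 and 5 reads. Control 2 lay within the KO range and the other 2 controls above it. In KO 1 and KO 3 these levels lay above the median of the sensory receptor genes in the same libraries (0.115 and 0.153 FPKM) and below their upper quartile (0.599 and 0.659 FPKM). Gene models such as Wdr48, at 2.87 to 7.75 FPKM, overlap the span of Cx3cr1, and reads that it could share with them were not measured.

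Ccr2 (ENSMUSG00000049103, chromosome 9), the receptor for CCL2 on inflammatory monocytes and some memory T cells, measured 7.27, 8.40 and 11.6 FPKM in the controls against 5.02, 3.92 and 4.43 FPKM in KO. Every KO library lay below every control, control 1 included. The log2 difference was -0.87 (SE 0.27, 95% interval -1.53 to -0.20, limma adjusted p = 0.417), with -0.61 when control 2 and 3 were left out and -1.01 when KO 1 and 3 were. Of 15 monocyte and macrophage genes none was at 0 in all libraries, and their summed level was 2037, 4652 and 4691 FPKM in the controls against 915, 381 and 2128 FPKM in KO. That sum overlapped between the groups, since KO 3 exceeded control 1. Lyz2, a gene of that list, made up most of the sum in every library. The mean log2(FPKM + 1) of the 15 genes was 4.195, 4.597 and 4.014 in the controls. It was highest in KO 3, at 4.796, and lowest in KO 2, at 1.876, with KO 1 also below every control. On that scale control 3 was thus not above control 1. The part of these genes in Ccr2 was not tested. Per FPKM of Csf1r, the macrophage growth factor receptor, Ccr2 measured 0.284, 0.380 and 0.482 in the controls against 0.383, 0.713 and 0.196 in KO, with overlapping groups. Per FPKM of Cd3e it measured 0.126, 0.571 and 0.845 in the controls against 0.116, 0.0623 and 0.133 in KO, so control 1 lay inside the KO range and control 2 and 3 above it. Per FPKM of Lyz2, the lysozyme of myeloid cells, it measured 0.00428, 0.00214 and 0.00275 in the controls against 0.00799, 0.0154 and 0.00279 in KO, again with overlap. Reads that Ccr2 could share with related receptor genes were not measured.

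Cxcr2 (ENSMUSG00000026180, chromosome 1), the neutrophil receptor for CXCL1 and CXCL2, reached 1.41, 9.41 and 32.3 FPKM in the controls, or 51, 431 and 1482 reads, and 0.863, 0.313 and 0.983 FPKM in KO, or 9, 14 and 9 reads. Control 3 was the highest, and control 1 was closer to the KO libraries than to control 3. The exact Poisson 95% limits of control 1 (1.05 to 1.86 FPKM) overlapped those of KO 1 (0.395 to 1.64 FPKM) and KO 3 (0.449 to 1.87 FPKM), but not those of KO 2 (0.171 to 0.525 FPKM). In KO 1 and KO 3 the level lay below the mean of the sensory receptor genes there (1.07 and 1.11 FPKM) but above their upper quartile (0.599 and 0.659 FPKM). The log2 difference was -2.48 (SE 0.92, 95% interval -4.69 to -0.27, limma adjusted p = 0.417), -1.57 without control 3, and -0.51 without control 2 and 3. Set against Csf3r, the G-CSF receptor of neutrophils, the ratio of Cxcr2 was 0.274, 0.264 and 0.284 in the controls against 0.197, 0.553 and 0.344 in KO, where few reads stand behind it. The ratio ran from 0.264 to 0.284 in the controls, where Cxcr2 itself ranged from 1.41 to 32.3 FPKM, and from 0.197 to 0.553 in KO. The part of neutrophil genes in Cxcr2 was not tested. The ratios to Cd3e, Cd79a, Tbx21, Csf1r, Lyz2 and Csf3r were chosen after values were seen, as were the regulators Klf2, Cd69 and Eomes above. Ratios of Ccr7 to S1pr1, S1pr1 to Klf2 and Cxcr3 to Cd3e were also computed and are not reported here.

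**Figure D2:**
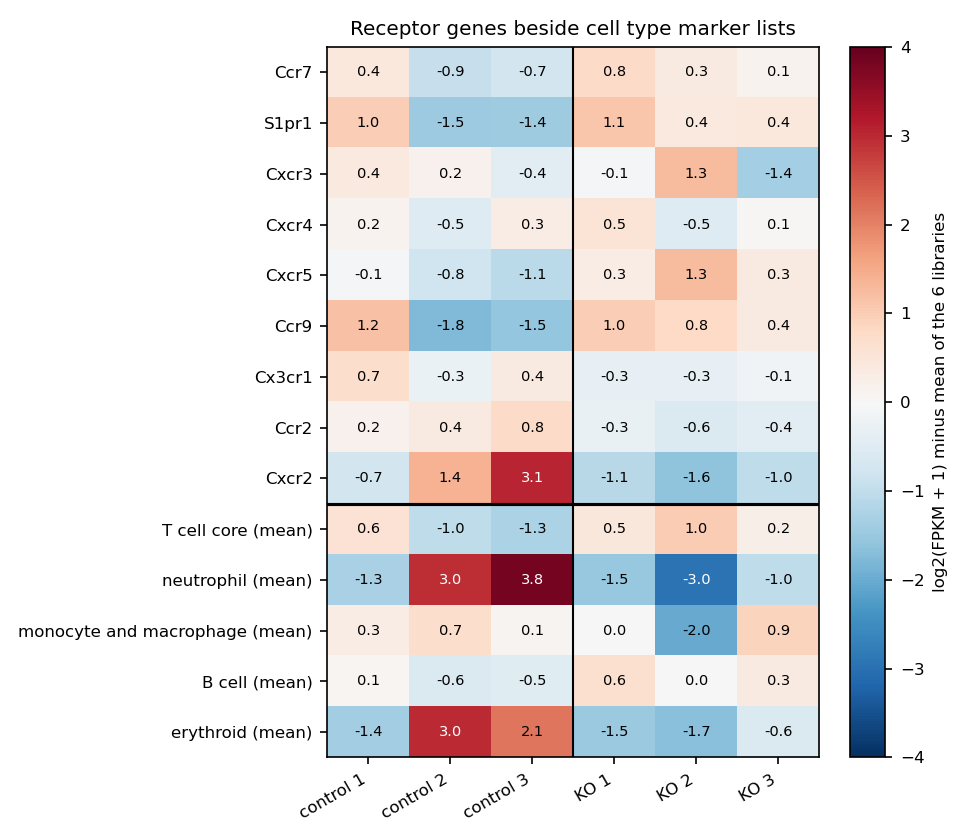
log2(FPKM + 1) of the 9 receptors (upper rows) and the mean over the genes of 5 marker lists (lower rows) in each library, each row given as its difference from its own mean over the 6 libraries (red above, blue below). Ccr7, S1pr1 and Ccr9 are low in control 2 and 3 like the T cell core genes, and Cxcr2 is high there like the neutrophil and erythroid genes.

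Ccr7, S1pr1 and Ccr9 moved together over the 6 libraries, and Ccr2 and Cxcr2 moved against them. Pearson r of log2(FPKM + 1) was 0.98 for Ccr7 with S1pr1, 0.98 for Ccr7 with Ccr9 and 0.99 for S1pr1 with Ccr9. Ccr2 and Cxcr2 had an r of 0.93 with each other. Ccr2 had an r of -0.74, -0.72 and -0.74 with Ccr7, S1pr1 and Ccr9, and Cxcr2 had an r of -0.87, -0.89 and -0.90 with Ccr7, S1pr1 and Ccr9. Cxcr5 had an r of 0.73 to 0.79 with Ccr7, S1pr1 and Ccr9, of -0.94 with Ccr2 and of -0.91 with Cxcr2. Cxcr3 and Cxcr4 stood outside both sets, with r between -0.49 and 0.37 to every other tested receptor. Among 174 other genes of the gene lists and the receptors, those most like Ccr7 were Bach2, S1pr1 and Ccr9, those most like S1pr1 were S1pr4, Bach2 and Ccr9, and those most like Ccr9 were Bach2, S1pr4 and Selplg. Cxcr2 was most like the neutrophil genes Mmp9 (r = 0.993), Padi4 (0.991) and Ltf (0.985), and Ccr2 most like Zbtb7b (0.977), S1pr2 (0.968) and Sgpl1 (0.964). Cxcr3 was most like Ctla4 (0.938), Tbx21 (0.905) and Cd226 (0.859), Cxcr5 most like Cd3d (0.963), Coro1a (0.960) and Cd3g (0.960), and Cxcr4 most like Grk3 (0.968), a kinase that desensitises receptors, Zbtb46 (0.788) and Prex1 (0.696). These r are descriptions over 6 libraries that share depth and cell content, with no test.

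Direction depended on which libraries were compared and on the scale. Without control 2 and 3, the log2 differences of Ccr7, S1pr1 and Ccr9 were below 0. Those of Cxcr5, Ccr2 and Cxcr2 kept their sign in all 15 alternative settings. As the groups of Cxcr5, Ccr2 and Cxcr2 did not overlap, only quantile normalization, centring and limma-voom could have reversed that sign. With each library centred on its T cell core genes, the median of all 13956 genes moved from 0.10 to -1.04, and only 12.8% of genes had a higher estimate in KO against 56.9% as deposited (42.2% after quantile normalization, with a median of -0.12). Against that median of -1.04, the differences of Ccr7, S1pr1, Cxcr5 and Ccr9 were -0.32, 0.13, 0.15 and 0.29, those of Cxcr3 and Cxcr4 were -1.25 and -1.09, and those of Ccr2 and Cxcr2 were -2.01 and -3.62.

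**Figure D3:**
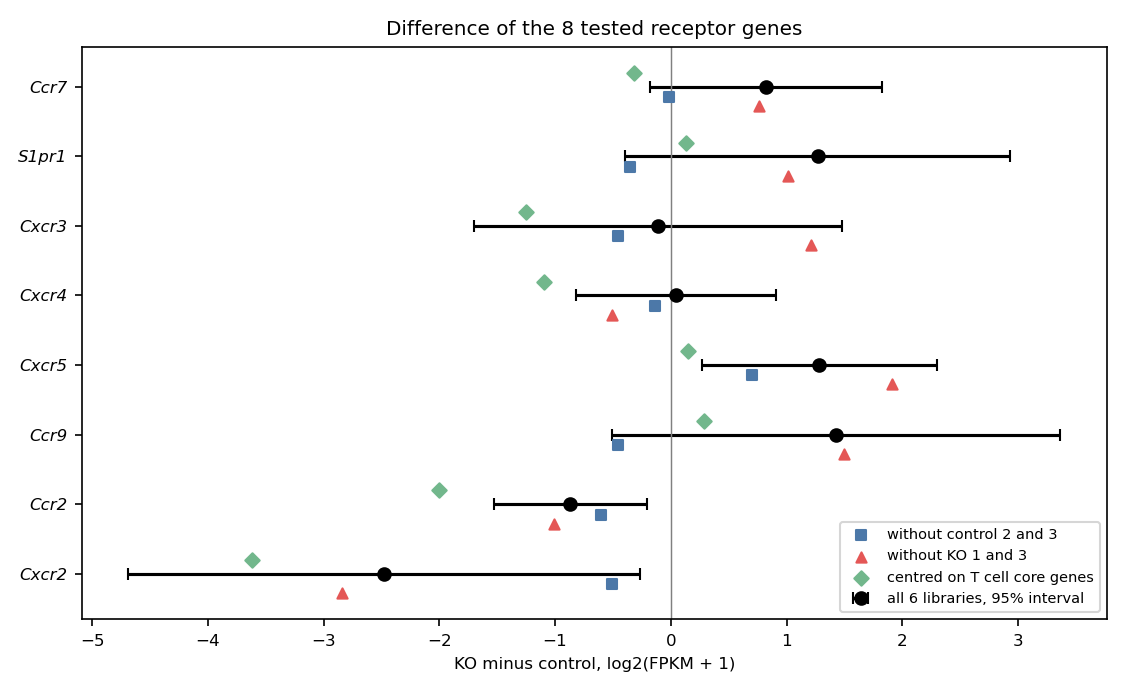
KO minus control difference in log2(FPKM + 1) for the 8 tested receptors, with all 6 libraries (black, 95% interval from limma), without control 2 and 3 (blue squares), without KO 1 and 3 (red triangles) and with each library centred on its T cell core genes (green diamonds). Blue squares lie at -0.018, -0.35 and -0.46 for Ccr7, S1pr1 and Ccr9, where the black points lie at 0.82, 1.27 and 1.43.

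Of 11 other chemokine receptors 6 were tested, 0 passed limma over all genes, 3 estimates were higher and 3 lower, and the median log2 difference was -0.24 against 0.10 over all tested genes. Ccr1, a receptor of neutrophils and monocytes, measured 21.7, 116 and 88.2 FPKM in the controls against 26.7, 7.33 and 31.3 FPKM in KO. Ccr8, known from regulatory and skin T cells, measured 2.16, 8.73 and 12.8 FPKM in the controls against 2.24, 1.97 and 1.13 FPKM in KO. Both were high in control 2 and 3, like Cxcr2. Ccr6 measured 1.65 ± 1.55 FPKM in the controls and 4.01 ± 3.15 in KO (SD, n = 3 each). Of 6 genes listed as atypical chemokine receptors, only Ccrl2 was tested, at 9.42 ± 2.63 FPKM in the controls and 3.54 ± 2.19 in KO, a log2 difference of -1.29.

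On chromosome 9 the GENCODE M21 order from Ccr9 to Ccr2 holds 9 protein-coding genes, Ccr9, Lztfl1, Fyco1, Cxcr6, Xcr1, Ccr1, Ccr1l1, Ccr3 and Ccr2, of which 7 are chemokine receptors. Cxcr6, a receptor of resident and effector T cells, measured 58.6, 17.8 and 41.9 FPKM in the controls against 40.4, 36.5 and 51.5 FPKM in KO, while Xcr1, Ccr1l1 and Ccr3 stayed below 1.2 FPKM in every library. Ccr9 was near 0 in control 2 and 3, where Ccr1 was highest.

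Of 14 lipid receptors and genes of sphingosine 1-phosphate supply 10 were tested, 0 passed, 5 estimates were higher and 5 lower, and the median was -0.01. S1pr4, a relative of S1pr1 on lymphocytes, measured 110, 20.3 and 23.9 FPKM in the controls against 117, 86.1 and 94.7 FPKM in KO. S1pr2, which opposes migration, measured 3.23, 6.23 and 7.73 FPKM in the controls against 2.27, 1.66 and 1.46 FPKM in KO, so every control lay above the KO range. The relatives S1pr1 and S1pr2 thus differed in which libraries were high. Sgpl1, the lyase that degrades the lipid, measured 61.0 ± 25.1 FPKM in the controls and 23.7 ± 6.84 in KO, and Ltb4r1, the leukotriene B4 receptor of neutrophils, 30.8 ± 22.6 and 8.57 ± 3.14.

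Of 18 ligands of the 9 receptors 8 were tested, 0 passed, 2 estimates were higher and 6 lower, and the median was -1.25. Cxcl2, a ligand of CXCR2, measured 17.2, 218 and 45.1 FPKM in the controls against 2.26, 10.7 and 4.99 FPKM in KO, with no overlap of the groups. Cxcl3, another CXCR2 ligand, measured 60.3, 155 and 3.19 FPKM in the controls against 3.68, 8.16 and 5.33 FPKM in KO, so control 3 lay below the KO range. Ccl2, the main ligand of CCR2, named for that role after values were seen, was highest in control 1, at 161 FPKM, against 59.5 and 6.08 FPKM in control 2 and 3 and 8.48, 8.08 and 22.2 FPKM in KO. Cxcl9, a CXCR3 ligand, measured 0.439 ± 0.497 FPKM in the controls and 1.51 ± 0.903 in KO, and Cxcl5 3.41 ± 2.45 and 0.848 ± 1.04.

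All 18 of the homing adhesion genes were tested, 0 passed, 9 estimates were higher and 9 lower, and the median was -0.12. Itgb1, the integrin beta 1 chain, measured 56.1, 94.5 and 93.7 FPKM in the controls against 37.8, 34.7 and 33.8 FPKM in KO. Cd44, the hyaluronan receptor raised on memory T cells and abundant on myeloid cells, measured 19.1, 63.2 and 69.7 FPKM in the controls against 8.20, 12.5 and 9.19 FPKM in KO. For both, every KO library lay below every control, and control 1 was the nearest. Itgam, the alpha chain of the myeloid integrin Mac-1, measured 41.1 ± 30.1 FPKM in the controls and 2.60 ± 0.952 in KO, and its partner Itgb2 259 ± 106 and 103 ± 33.0. Selplg, which encodes the ligand of P-selectin and the adhesion gene most like Ccr9, measured 168, 44.3 and 46.9 FPKM in the controls against 174, 175 and 155 FPKM in KO.

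Of 16 regulators of the receptors 16 were tested, 0 passed, 11 estimates were higher and 5 lower, and the median was 0.61, and -0.48 without control 2 and 3. Foxo1, which acts upstream of Klf2 and Ccr7 in naive T cells, measured 12.7, 3.31 and 3.72 FPKM in the controls against 16.9, 13.6 and 13.9 FPKM in KO. Lef1, a naive T cell factor, measured 49.1, 7.71 and 5.94 FPKM in the controls against 63.7, 47.2 and 63.6 FPKM in KO. In both, control 1 stood far above control 2 and 3, the split seen for Ccr7, S1pr1 and Ccr9. Zeb2, a factor of myeloid and effector T cells, was at 7.04 ± 3.83 FPKM in the controls and 1.39 ± 0.597 in KO, and Hif1a, the oxygen-regulated factor, 37.2 ± 15.6 and 16.6 ± 9.88.

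Of 36 matched genes of chemokine receptor signalling 35 were tested, 0 passed, 13 estimates were higher and 22 lower, and the median was -0.19. Gnai2, named after values were seen, the inhibitory G protein alpha chain through which these receptors act, ranged from 177 to 244 FPKM over the 6 libraries. The genes with the smallest p were Pik3cg, the lipid kinase activated by G protein beta-gamma chains (12.5 ± 7.29 FPKM in the controls and 3.62 ± 0.936 in KO), Plcb2, a phospholipase downstream of the same chains (29.0 ± 20.6 and 6.94 ± 3.13), Rgs10, a brake on G alpha signalling (33.6 ± 4.37 and 65.4 ± 23.0), and Rgs18, a brake known from platelets and myeloid cells (18.1 ± 11.1 and 3.62 ± 1.70). Of these, Rgs10 alone was higher in every KO library than in every control.

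Markers of the cells that such a spleen sample could hold were described the same way. Of the T cell core list, 18 of 18 estimates were higher, against 56.9% of all tested genes, and 5 had every KO library above the controls, against 6.70% of all tested genes. The median was 1.18, or 0.060 without control 2 and 3. All 14 tested neutrophil genes had lower estimates, with a median of -3.75, or -0.39 without control 2 and 3. Mmp9, a neutrophil granule protease and the gene closest to Cxcr2, stood at 3.44, 37.1 and 142 FPKM in the controls against 1.40, 0.481 and 0.846 FPKM in KO. It was thus low in control 1 as well as in KO. Of the other lists, monocyte and macrophage genes had 12 of 14 lower estimates (median -0.63), erythroid genes 6 of 7 lower (-3.02), B cell genes 5 of 5 higher (0.97), dendritic cell genes 5 of 6 higher (0.41), and CD4 T cell and regulatory T cell genes 3 of 6 lower (-0.33). Those 3 lower genes, Zbtb7b, Cd4 and Cd40lg, had every KO library below every control, against 9.44% of all tested genes. The 3 with higher estimates had overlapping groups. Of the 7 NK cell genes 3 were tested, and they did not move one way: Tyrobp and Fcer1g, adaptors that myeloid cells also carry, had differences of -2.18 and -2.46 and were high in control 2 and 3, while Ncr1, an NK cell receptor, had 1.35. Ncr1 measured 1.04, 0.562 and 0.605 FPKM in the controls against 7.40, 0.752 and 4.75 FPKM in KO, with overlapping groups. Without the shallow KO 1 and 3 its difference was 0.024. The median of the 3 NK cell genes, -2.18, is that of Tyrobp. No gene of any of these lists passed limma over all genes, and their part in the receptor values was not tested.

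**Figure D4:**
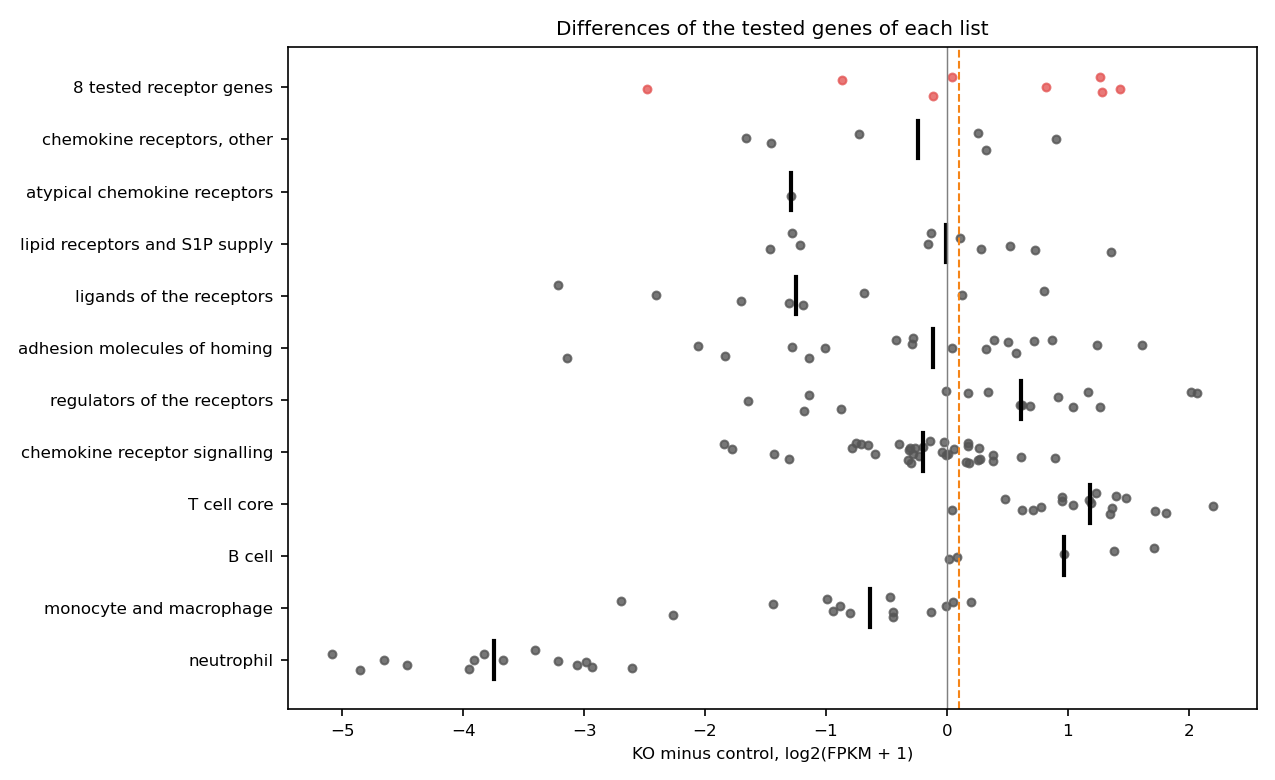
KO minus control difference in log2(FPKM + 1) for each tested gene (points) of the receptor set and of 11 gene lists, with the median of each of the 11 lists as a black bar and the median of all tested genes, 0.10, as a dashed line. Of the lists plotted, the neutrophil genes have the lowest median, -3.75, and the T cell core genes the highest, 1.18, and 0 genes of any list passed limma at an adjusted p of 0.05.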

How the data were processed

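RNA-seq of splenic CD8+ T cells was compared between 3 control and 3 KO libraries. The authors deposited FPKM, 1 value per gene and library; the unit was read from the values. Per the submitters' processing notes, build mm8, HTSeq 0.6.0, HISAT2 2 and Bowtie2 2.2.3 were used, with no role or order. The annotation, the strand setting and the step to FPKM are not given in the sources used here. GENCODE M21 gave symbols and summed exon lengths for 35358 of 35458 identifiers. Its build differs from mm8, so gene coordinates are printed only for RefSeq promoters. FPKM times exon length gave whole multiples of a constant for each library (within 0.02 read for 92.1% to 93.4% of values under 200 reads), which gave implied reads and totals. Summed over genes, implied reads exceeded the implied total in every library (12892462 against 11840640 in control 1), so depths are approximate. Poisson 95% intervals cover counting error only.

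A gene entered the test at 1 FPKM or more in any 3 libraries, on log2(FPKM + 1) using limma (version 3.58.1, in R 4.3.3) with a mean-variance trend and no covariate. Benjamini-Hochberg adjustment ran over 13956 genes, with a threshold of 0.05. The script was tested on simulated data. Large changes were simulated, with the same added spread for every gene and all libraries kept. The script recovered the changed genes there, but the share of false calls came out above the nominal rate. Such recovery does not measure power in these data. Calls made with a library left out may likewise hold more false calls, but such fits were not simulated. Alternatives were another pseudocount, no filter, quantile normalization, centring on T cell core genes, a replicate block, protein-coding genes only, limma-voom on implied reads and fits without 1 or 2 libraries. The receptors and the 15 lists (211 entries, 210 matched) were chosen with earlier results of these data known, and motifs and ratio pairs after values were seen. The rule for named genes took the 9 receptors, up to 4 genes per list by smallest p and the 3 genes most like each receptor; marker lists are given mainly as sums. Some genes of the lists are not reported here by name. Python 3.11.15, pandas 2.3.3, scipy 1.17.1 and matplotlib 3.10.9 were used.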

Additional observations from a re-analysis of the deposited data

How the results depend on the processing

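Cxcr5, Ccr2 and Cxcr2 kept their sign in all 15 alternatives, Ccr7 in 13, S1pr1 and Ccr9 in 14, Cxcr3 in 11 and Cxcr4 in 10. For Cxcr5, Ccr2 and Cxcr2, whose groups did not overlap, most of these alternatives could not have reversed the sign. Causes were not tested. Without control 2 and 3, log2 differences were -0.018 (Ccr7), -0.35 (S1pr1), -0.46 (Ccr9) and -0.13 (Cxcr4). Without KO 1 and 3 they were 1.21 (Cxcr3) and -0.51 (Cxcr4). Centred on T cell core genes, Ccr7 was at -0.32 and Cxcr4 at -1.09, and limma-voom gave Cxcr3 0.57. Fits that leave 1 library in a group assume that it varies like the other group. Leaving out 1 library at a time, 0 to 1821 genes passed limma, 0 to 1687 of them higher and 0 to 2 of them receptors: 363 (146 higher) without control 1, with S1pr1 and Ccr9 among them, and 1821 (1687 higher) without KO 2, with 0 receptors. The range was -0.77 to 0.53 for Cxcr3, -0.22 to 0.32 for Cxcr4, 0.57 to 1.24 for Ccr7, 0.86 to 2.08 for S1pr1, 0.90 to 2.37 for Ccr9 (highest for these 3 without control 1) and -3.46 to -1.57 for Cxcr2 (lowest in size without control 3). Same-numbered libraries had deviations correlated at 0.112, 0.0202 and 0.0175, so numbers were not taken as pairs, and of the controls only control 1 correlated best with its own number; with the replicate block 0 genes passed, 1692 before adjustment, against 1646, and Ccr7 (limma p = 0.0421) and S1pr1 (p = 0.0351) came under 0.05 before adjustment. Before adjustment, Cxcr2 was over 0.05 in 8 alternatives, Cxcr5 in 5 and Ccr2 in 3. Without the filter 0 of 35085 passed.

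Medians of lists moved as follows. With a pseudocount of 0.1, other chemokine receptors were at -0.61 and B cell genes at 1.49. After quantile normalization, other chemokine receptors were at -0.40, lipid receptors at -0.26 and adhesion genes at -0.36. Without control 2 and 3, lipid receptors were at -0.27, adhesion genes at -0.55, regulators at -0.48, T cell core at 0.060, neutrophil at -0.39, B cell at 0.37, NK cell at -0.44, dendritic at -0.28 and erythroid at 0.18. Without KO 1 and 3, other chemokine receptors were at 0.039, atypical at -0.58, adhesion at 0.29, monocyte at -2.31 and NK cell at -3.36. Centred on T cell core genes, the medians were -1.37 (other chemokine receptors), -2.43 (atypical), -1.15 (lipid), -2.39 (ligands), -1.26 (adhesion), -0.52 (regulators), -1.33 (signalling), 0.047 (T cell core), -1.47 (CD4), -0.17 (B cell), -3.32 (NK cell) and -0.73 (dendritic). The T cell core median there is no outcome, since the centring itself makes the mean of that list equal in all libraries. With limma-voom, monocyte genes were at -2.31 and B cell genes at 1.58. Leaving out 1 library at a time gave -0.43 to 0.091 for other chemokine receptors, -0.16 to 0.20 for lipid receptors, -0.37 to 0.37 for adhesion genes, -1.30 to 0.33 for monocyte genes (ends without KO 3 and KO 2), -2.12 to -0.56 for ligands (control 3, control 1), 0.29 to 1.17 for regulators (control 3, control 1), 0.77 to 1.72 for T cell core (control 3, control 1), 0.58 to 1.23 for B cell (KO 1, control 1), -0.63 to -0.23 for CD4 (KO 2, control 1), -4.77 to -1.77 for erythroid (control 1, control 2), 0.20 to 0.78 for dendritic (control 3, control 1) and -5.40 to -2.75 for neutrophil genes (control 1, control 3).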
